A study of Mus musculus with 2 samples.

Results

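The interferon-induced GTPases described here are 10 mouse genes chosen by symbol from the 24091 genes of the deposited expression table. They are the guanylate-binding proteins (GBPs) Gbp2, Gbp3, Gbp5 and Gbp7, the immunity-related GTPases (IRGs) Irgm1, Irgm2, Igtp and Iigp1, and the dynamin-like Mx1 and Mx2. All 10 genes were found in the table, each once. They were picked by name and family, but with earlier results of these data known.

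The RNA came from the fraction that floats after collagenase digestion of gonadal adipose tissue of C57BL/6 mice. It was labelled as primary adipocytes and kept for 3 days in culture before RNA was prepared. Markers of adipocytes and of other cell types are given below. The sham library came from mice that received no radiation, and the irradiated library from mice given pelvic radiation labelled as 7.5 Gy for 5 days, with tissue taken 2 months after radiation. Both titles also name PBS, without saying what was given it. The labels do not say how many mice were pooled in a library, nor their sex or age, nor whether 7.5 Gy was a daily or a total dose. Each condition has 1 library, so no difference has a replicate check, no p-value is given, and radiation cannot be told apart from any other difference between the 2 libraries.

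Interferons act through separate receptor systems. Type II interferon, interferon-γ, acts largely through gamma-activated sites (GAS) in the promoters of its target genes, whereas type I and type III interferons act largely through interferon-stimulated response elements (ISRE), which interferon regulatory factors such as IRF1 can also bind. GBPs and IRGs are best known as interferon-γ-induced GTPases that gather on vacuoles holding intracellular pathogens, and some of them promote inflammasome activation. Mx proteins are antiviral GTPases induced mainly by type I and type III interferons, and laboratory strains such as C57BL/6 carry defective Mx alleles.

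The promoter sequences of the GBP and IRG genes are shown because these are the letters that the interferon-activated factors read. RefSeq promoter windows (GRCm38.p6), each running from 250 bases before to 50 bases after a gene's start, were matched for 7 of the 10 genes, namely Gbp2, Gbp3, Gbp5, Gbp7, Irgm1, Irgm2 and Igtp. Each window was searched on both strands for the ISRE letters GAAANNGAAA (TTTCNNTTTC on the other strand) and for the GAS letters TTCNNNGAA. The last 120 bases before the start are given below, 170 for Gbp5, in the direction of transcription and with every motif match in capitals. Where matches overlap, as in Gbp3 and Irgm1, the capitals form 1 run.
Gbp2, chr3:142620543-142620662, plus strand: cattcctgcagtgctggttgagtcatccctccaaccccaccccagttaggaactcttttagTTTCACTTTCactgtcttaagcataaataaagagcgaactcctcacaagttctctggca
Gbp3, chr3:142559924-142560043, plus strand: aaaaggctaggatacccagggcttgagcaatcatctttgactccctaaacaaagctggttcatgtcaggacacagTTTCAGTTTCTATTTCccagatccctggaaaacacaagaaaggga
Gbp5, chr3:142496764-142496933, plus strand: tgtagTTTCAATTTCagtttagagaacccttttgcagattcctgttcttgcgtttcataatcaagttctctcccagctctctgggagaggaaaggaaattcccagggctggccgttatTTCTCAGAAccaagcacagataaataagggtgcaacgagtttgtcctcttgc
Gbp7, chr3:142530216-142530335, plus strand: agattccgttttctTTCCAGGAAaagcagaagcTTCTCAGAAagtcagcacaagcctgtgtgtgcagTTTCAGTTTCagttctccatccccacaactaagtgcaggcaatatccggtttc
Irgm1, chr11:48871421-48871540, minus strand: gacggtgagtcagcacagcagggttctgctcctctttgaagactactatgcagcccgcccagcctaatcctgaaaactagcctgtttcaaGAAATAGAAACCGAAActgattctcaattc
Irgm2, chr11:58214857-58214976, plus strand: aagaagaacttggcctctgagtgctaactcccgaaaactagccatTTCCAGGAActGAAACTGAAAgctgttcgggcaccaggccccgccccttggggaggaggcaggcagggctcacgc
Igtp, chr11:58199436-58199555, plus strand: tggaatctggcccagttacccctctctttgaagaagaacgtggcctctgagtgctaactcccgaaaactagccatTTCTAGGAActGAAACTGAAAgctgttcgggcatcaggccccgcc

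An ISRE match was present in the windows of 7 of 7 genes, against 3.99% of the 27025 genes with a window. A GAS match was present in 4 of 7, namely Gbp5, Gbp7, Irgm2 and Igtp, against 9.55% of all genes, and the 4 genes that held both compare with 0.614% of all genes. The ISRE match began 59 bases before the start in Gbp2, 53 in Gbp7, 64 in Irgm2 and 34 in Igtp. Gbp3 held overlapping matches at 45 and 39 bases and Irgm1 at 30 and 24 bases, whereas the match of Gbp5 lay farther away, at 165 bases. Gbp3 has a second annotated start, whose window held neither motif. In Irgm2 and Igtp the GAS match began 11 bases upstream of the ISRE match, and 39 of 40 bases around this pair of motifs were identical between both genes. Gbp5 had GAS matches at 245 and 52 bases and Gbp7 at 106 and 87 bases, and of these only the match at 245 bases lies outside the sequences printed. A match describes these letters only, since binding was not measured.

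**Figure D1:**
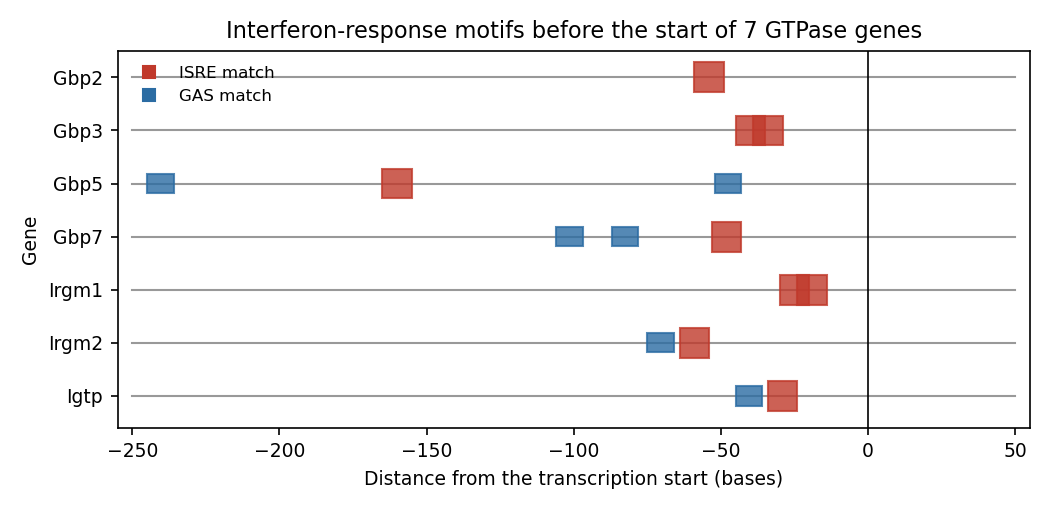
Position of ISRE and GAS motif matches in the promoter windows of 7 GBP and IRG genes, with the distance from the annotated start in bases on the horizontal axis and 1 line per gene. An ISRE match is present in all 7 windows and a GAS match in those of Gbp5, Gbp7, Irgm2 and Igtp.

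Expression is given as FPKM, the fragments on a gene scaled to its length and to the depth of the library, which allows levels to be compared between genes. The recovered depth was 30584000 fragments in the sham library and 34992000 in the irradiated library. Differences between libraries are irradiated minus sham on the deposited log2(FPKM + 0.1) scale, which makes changes at low FPKM look smaller than they are. Beside it stands the ratio of fragments per library total with its exact 95% binomial (Clopper-Pearson) interval. The intervals cover counting error only and not the spread between mice or cultures, and PCR copies of a fragment are not separate molecules. Genes that reached FPKM 1 in either library were kept, which left 11253 with a median difference of 0.02 and 5th and 95th percentiles of -0.27 and 0.46.

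All 10 GTPases were higher in the irradiated library, by amounts that ran from 0.02 for Gbp2, equal to the median of all kept genes, to 1.59 for Mx1. Of the 10 genes, 8 were kept, and Mx1 and Mx2 stayed under FPKM 1 in both libraries. Among the 8 kept genes, all of them GBPs or IRGs, 8 were higher (53.5% of all kept genes were higher), 6 had a counting interval above 0 (23.8% of all kept genes), and 2, Irgm1 and Igtp, were higher by at least 0.5 (4.31% of all kept genes). None of the 10 was lower. Igtp passed narrowly, at 0.52, and the count was 1 when the gene-length trend was removed or the pseudocount was 1. The median difference of the 8 kept genes was 0.315, with a 95% order-statistic interval from 0.02 to 0.55, and that of all 10 was 0.345. By family, the difference was smallest over the GBPs, larger over the IRGs and largest over the 2 Mx genes.

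**Figure D2:**
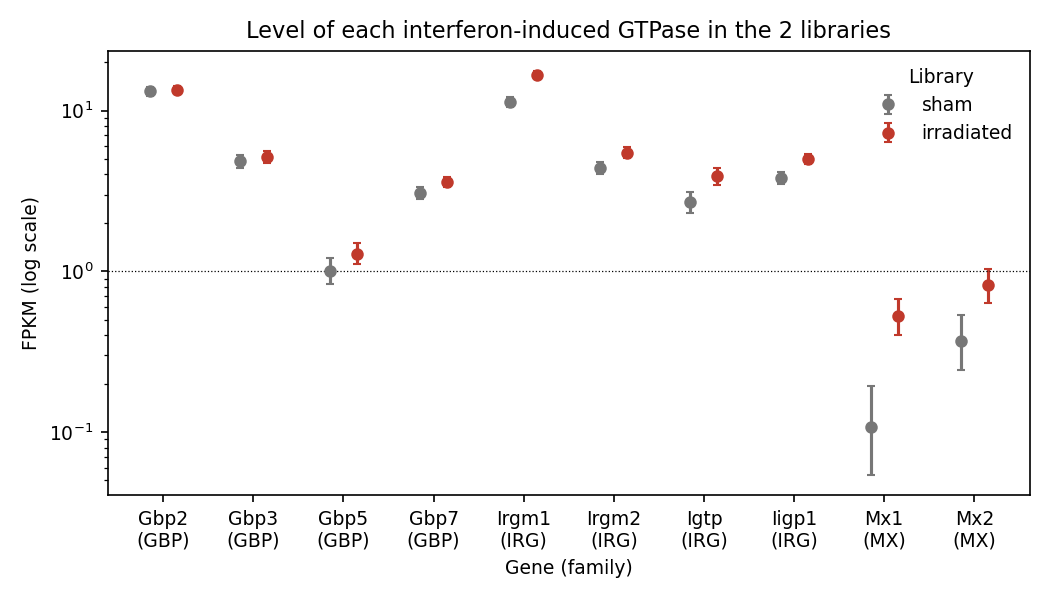
FPKM of the 10 GTPases in the sham and the irradiated library on a log axis, with bars for exact 95% Poisson intervals that cover counting error only. Gbp2 and Irgm1 have the highest levels, Mx1 and Mx2 the lowest, and the intervals of Gbp2 overlap whereas those of Irgm1 do not.

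The GBPs are large GTPases that assemble into coats on pathogen vacuoles and on bacteria. The 4 genes measured here form a cluster on chromosome 3, all on the plus strand of mm10, in the order Gbp5 (142496934 to 142522344), Gbp7 (142530336 to 142550151), Gbp3 (142560052 to 142573212) and Gbp2 (142620663 to 142638008). Gaps of 7.991, 9.9 and 47.45 kb separate neighbours, and the deposited span of a further relative, Gbp2b, runs across Gbp7 and Gbp3 and part of Gbp5, although no exon of Gbp2b overlaps theirs in the GENCODE M21 annotation.

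Gbp2, which takes part in caspase-11 and AIM2 inflammasome responses, was the highest of the 10 genes in the sham library. Its level was 13.2 FPKM (Poisson interval 12.4 to 14.0) in the sham library and 13.4 FPKM (12.6 to 14.2) in the irradiated library, from 984 and 1142 fragments. The levels of Gbp2 overlapped, and the fold per library total was 1.01 (interval 0.931 to 1.11), which includes 1. Gbp3 measured 4.83 FPKM in the sham library and 5.14 FPKM in the irradiated library, with a log2 ratio of 0.09 whose interval, -0.10 to 0.28, also included 0.

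Gbp7 and Gbp5 were both higher in the irradiated library. Gbp7, which has been tied to oxidative and autophagic defence, measured 3.08 FPKM in the sham library and 3.58 FPKM in the irradiated library, a fold of 1.16 (interval 1.04 to 1.30). Gbp5, which promotes NLRP3 inflammasome assembly, had the lowest level of the 4, with 1.01 FPKM from 122 fragments and 1.29 FPKM from 178 fragments, and a log2 ratio of 0.35 (interval 0.01 to 0.70). The lower bound of Gbp5 lay close to 0, and with 99% intervals in place of 95% it was the 1 gene of the 8 with intervals above 0 that no longer had one. Part of Gbp7 is shared with a pseudogene, Gm43802, as 10.5% of its 50-base transcript windows were identical to that gene, so its fragments are less certainly its own.

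The 4 GBPs together had 2072 fragments in the sham library and 2555 in the irradiated library, a fold per library total of 1.08 (interval 1.02 to 1.14). Gbp2 carried much of this sum, and without it the log2 ratio was 0.18 (interval 0.07 to 0.30) against 0.11 (0.02 to 0.19) with it. The median difference of the 4 genes was 0.15, and none reached 0.5.

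The IRGs fall into regulators and effectors. Irgm1, Irgm2 and Igtp (also called Irgm3) belong to the regulatory IRGM subfamily, which guards the cell's own membranes, and Iigp1 (also called Irga6) is an effector that loads onto the vacuole of Toxoplasma and other pathogens. Irgm1 lies on chromosome 11 from 48865249 to 48871346 on the minus strand of mm10, 9328 kb from the pair of Igtp (58199556 to 58207592) and Irgm2 on the plus strand. Iigp1 lies on chromosome 18 from 60376029 to 60392629 on the plus strand.

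Irgm1 was the highest of the 4 IRGs in both libraries. It measured 11.4 FPKM (Poisson interval 10.6 to 12.2) in the sham library and 16.7 FPKM (15.8 to 17.6) in the irradiated library, from 773 and 1299 fragments. These levels did not overlap, the fold was 1.47 (interval 1.34 to 1.61), and 96.5% of kept genes had a smaller difference. The order of the 2 highest genes was reversed, since the FPKM of Irgm1 was 0.864 times that of Gbp2 in the sham library and 1.25 times that of Gbp2 in the irradiated library.

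Iigp1 and Irgm2 were also higher in the irradiated library, by less than Irgm1. Iigp1 measured 3.82 FPKM in the sham library and 4.96 FPKM in the irradiated library, from 508 and 755 fragments, a fold of 1.30 (interval 1.16 to 1.46). Irgm2 measured 4.40 FPKM and 5.48 FPKM, from 509 and 725 fragments, with a log2 ratio of 0.32 (interval 0.15 to 0.48). Igtp, the lowest of the 4, measured 2.69 FPKM in the sham library and 3.90 FPKM in the irradiated library, from 166 and 276 fragments, a fold of 1.45 (interval 1.19 to 1.77).

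Igtp and Irgm2 are not fully separate measurements. The deposited span of Irgm2 begins at the first base of Igtp (58199556 to 58222783) and covers it over 8.037 kb, whereas RefSeq starts Irgm2 at 58214977. In the GENCODE M21 annotation the exons of both genes shared 162 bases, which is 8.01% of the exons of Igtp and 4.39% of those of Irgm2, and 11.8% of the 50-base windows of Igtp were identical to Irgm2. How the counting assigned such fragments was not stated in the sources. The 4 IRGs together had 1956 and 3055 fragments, a log2 ratio of 0.45 (interval 0.37 to 0.53), and without both Igtp and Irgm2 the ratio was 0.49 (interval 0.39 to 0.59). Without Irgm1 it was 0.38 (interval 0.27 to 0.48), which overlaps the interval of the GBPs without Gbp2.

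Mx1 and Mx2 encode dynamin-like GTPases that assemble into rings around viral nucleoproteins, of which the Mx1 protein acts in the nucleus and the Mx2 protein in the cytoplasm. They lie 73.2 kb apart on chromosome 16 of mm10, with Mx1 on the minus strand (97447035 to 97462906) and Mx2 on the plus strand (97536081 to 97560901). RefSeq lists both as transcribed pseudogenes, and GENCODE M21 lists Mx1 as protein coding and Mx2 as a polymorphic pseudogene. The values below are levels of RNA, and protein was not measured.

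Mx1 was the lowest of the 10 genes in both libraries and had the largest difference. Its level was 0.107 FPKM (Poisson interval 0.0539 to 0.193) in the sham library, from 11 fragments, and 0.524 FPKM (0.400 to 0.673) in the irradiated library, from 61 fragments. The levels did not overlap, and the fold was 4.85 (interval 2.53 to 10.2), above the intervals of all 8 GBPs and IRGs. Mx2 measured 0.367 FPKM (0.242 to 0.533) in the sham library and 0.820 FPKM (0.637 to 1.04) in the irradiated library, from 27 and 69 fragments.

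The levels of Mx2 did not overlap either, and its fold was 2.23 (interval 1.41 to 3.63), an interval that overlapped those of Gbp5, Irgm1, Igtp and Iigp1. Mx2 stood 3.42 times above Mx1 in the sham library and 1.57 times above it in the irradiated library. Both differences, 1.59 for Mx1 and 0.98 for Mx2, came from few fragments. Among the 1289 genes with 50 to 150 fragments in both libraries together, 18.4% were higher by at least 0.5 (4.31% of all kept genes). An interval above 0 was found for 18.2% of them (23.8% of all kept genes). The share of such genes with differences as large as those of Mx1 or Mx2 was not computed.

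**Figure D3:**
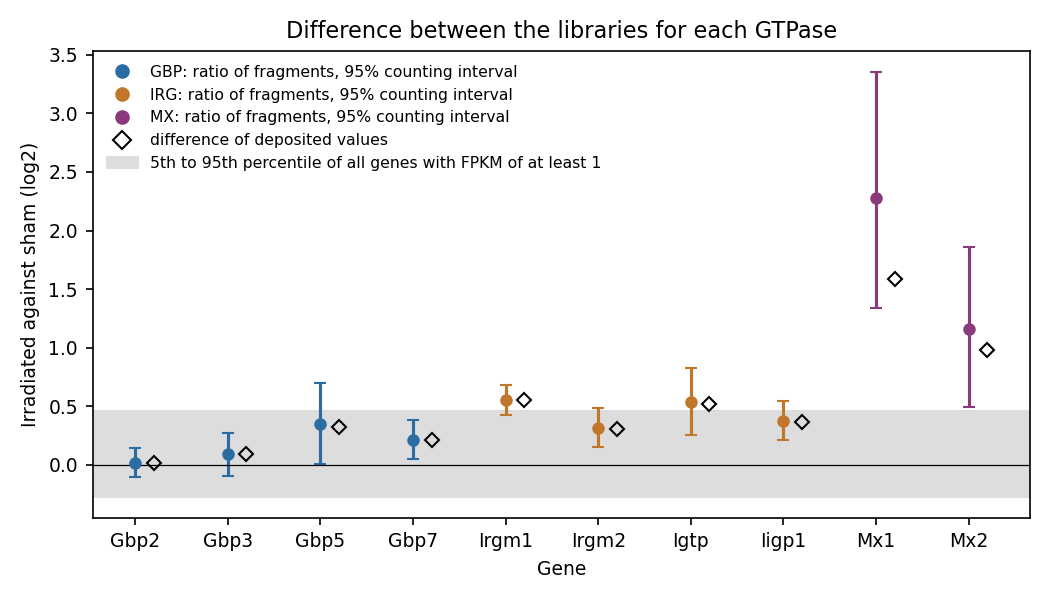
Log2 ratio of fragments per library total, irradiated against sham, for each of the 10 GTPases (filled points, with exact 95% binomial intervals that cover counting error only), beside the difference of the deposited values (diamonds), with the 5th to 95th percentile of all kept genes in grey. The intervals of Gbp2 and Gbp3 include 0, those of the other 8 genes lie above 0, and that of Mx1 lies above those of all GBPs and IRGs.

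Set side by side, the summed fragments of the 3 families differed by more than their counting error. The fold was 1.08 (interval 1.02 to 1.14) for the GBPs and 1.37 (1.29 to 1.45) for the IRGs. For the Mx genes, whose sums were 38 and 130 fragments, it was 2.99 (2.07 to 4.41). The GBP and IRG sums each leaned on 1 gene. Without Gbp2 the log2 interval of the GBPs was 0.07 to 0.30, and it overlapped that of the IRGs without Irgm1, 0.27 to 0.48. In FPKM, the GBPs summed to 22.1 in the sham library and 23.4 in the irradiated library, the IRGs to 22.3 and 31.0, and the Mx genes to 0.474 and 1.34. The GBP and IRG sums were thus close in the sham library, and the family with the lowest levels, the Mx genes, had the largest fold.

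**Figure D4:**
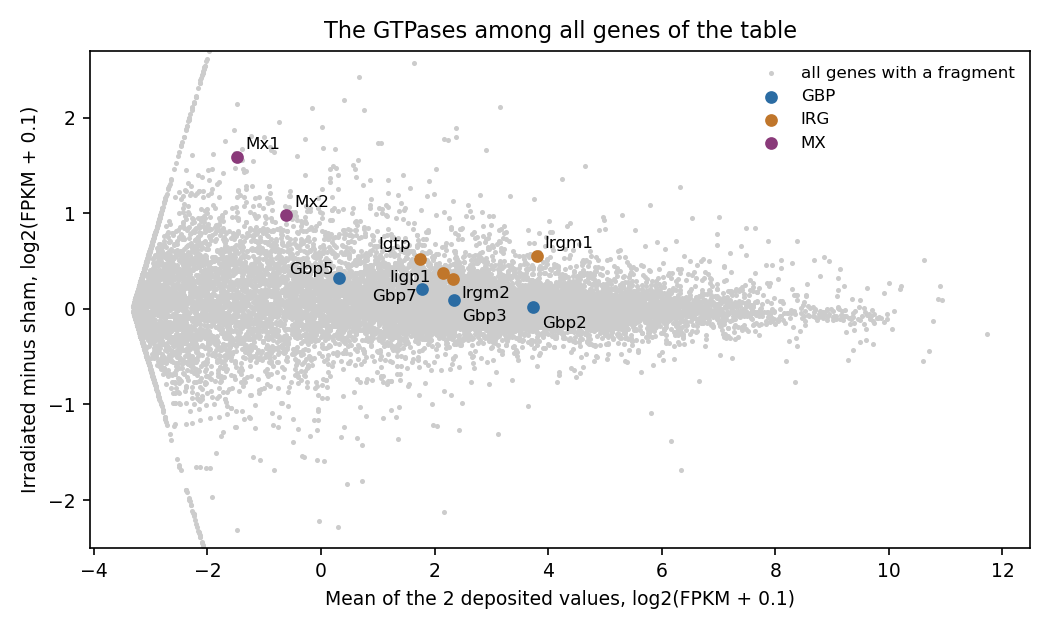
Difference of log2(FPKM + 0.1), irradiated minus sham, against the mean log2 level for 17312 genes in grey, with the 10 GTPases marked by family, and 34 genes outside the axes. The spread of all genes is widest at low levels, where Mx1 and Mx2 lie, and the differences of the GBPs and IRGs run from 0.02 to 0.55.

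The other members of the same GTPase families were mostly near or under FPKM 1. Of 7 other GBPs only Gbp9 was kept, at 1.40 and 1.63 FPKM, with a difference of 0.21 whose counting interval included 0. Of 13 other IRGs, 3 were kept. Over all 13, most of them at low counts, 11 were higher in the irradiated library and 2 lower (53.5% of all kept genes were higher). Of the 13, 7 were higher by at least 0.5, against the 18.4% of genes with 50 to 150 fragments. Without the filter the share was 5.50% of all genes. That share includes genes without any fragment, which cannot pass, whereas all 13 of these IRGs had fragments. Ifi47 (also called Irgd) measured 2.17 and 3.43 FPKM, and Gm12250, which encodes Irgb10, an effector that acts with GBPs on bacterial membranes, measured 0.617 and 1.24 FPKM. Irgq, a relative that is not known as interferon-induced, measured 6.13 and 5.76 FPKM, a difference of -0.09. Several of the remaining IRGs are near-identical copies, such as Tgtp1 and Tgtp2, with 81.2% and 86.6% of their windows shared with other genes, and their values are uncertain.

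The kept relatives of the Mx genes without a known interferon role had smaller differences than Mx1 and Mx2, which were not kept. Of 10 dynamins, mitofusins, atlastins and related genes, 8 were kept, none was higher or lower by 0.5 or more, and their median difference was 0.05. Of those kept, Dnm1, the neuronal dynamin, had the largest, at 0.40, followed by Mfn2 at 0.11 and Dnm2 at 0.07. The smallest were Dnm1l at -0.07 and Opa1 at -0.05. Dnm3, which was not kept, had few fragments (28 and 59), as Mx1 and Mx2 did, and a difference of 0.41. Its log2 ratio of fragments was 0.88 (interval 0.21 to 1.59), and this interval overlapped those of Mx1 and Mx2. None of the 10 held an ISRE or a GAS match in its promoter windows.

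Interferon genes themselves were hardly detected. Of 20 interferon ligand genes, 19 had 0 fragments in both libraries, including Ifng, for which 3 fragments would have read 0.0813 FPKM in the sham library and 0.0711 FPKM in the irradiated library. Ifnb1 had 0 fragments in the sham library and 1 in the irradiated library. The receptor genes were well measured. The interferon-γ receptor chains Ifngr1 (31.5 and 29.8 FPKM) and Ifngr2 (32.6 and 36.4 FPKM) differed by -0.08 and 0.16, and the type I receptor chains Ifnar1 (17.9 and 16.0 FPKM) and Ifnar2 (29.3 and 25.2 FPKM) by -0.16 and -0.22. Il10rb, which pairs with the type III receptor chain, differed by 0.21, and the chain itself, Ifnlr1, was under FPKM 1.

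The genes of interferon signalling moved in both directions. All 14 were kept, 8 were higher and 6 lower (53.5% of all kept genes were higher), and their median difference was 0.115. The largest differences were 0.86 for Usp18, which restrains type I signalling, 0.55 for Irf7, the factor that amplifies type I interferon production, and 0.53 for Irf8, a factor of myeloid cells. The smallest were -0.55 for Socs1, an inhibitor of Janus kinases, and -0.53 for Jak2, a kinase bound to the interferon-γ receptor. Jak2 measured 78.2 FPKM in the sham library and 54.1 FPKM in the irradiated library.

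The contrast between mainly type I and mainly type II induced genes was also read in genes of both responses outside the 3 families. Irf7 and Usp18 of the type I list, and Irf1, Irf8 and Socs1 of the type II list, are also among the signalling genes above. Both lists were chosen with earlier results of these data known, so they are a description and no independent check. Of 26 type I leaning genes, 23 were kept, of which 20 were higher and 3 lower, 12 were higher by at least 0.5 and 0 lower by as much, and the median difference was 0.55 (order-statistic interval 0.21 to 0.78). Of 21 type II leaning genes, 15 were kept, of which 11 were higher and 4 lower, 2 were higher by at least 0.5 and 3 lower by as much, and the median was 0.09 (interval -0.10 to 0.29). Over all kept genes 4.31% were higher and 1.44% lower by at least 0.5. The medians of the GBPs (0.15) and the IRGs (0.445) lay between those of the 2 lists, and Mx1 and Mx2 (1.59 and 0.98) lay above the type I median.

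Single genes of the 2 lists differed widely. Among type I leaning genes the largest differences were those of Ifit3 (1.77, from 150 and 600 fragments), Rsad2 (1.73, from 129 and 524 fragments) and Ifit1 (1.66, from 330 and 1215 fragments), which encode antiviral effectors, and the smallest were -0.30 for Ifi27l2a and -0.10 for Bst2, which encodes tetherin. Among type II leaning genes, Cd274, which encodes PD-L1, differed by 0.70, Irf8 by 0.53 and H2-Ab1, an MHC class II chain, by 0.44. Nos2, the inducible nitric oxide synthase, had the lowest difference, -1.36, with 3.98 and 1.49 FPKM, followed by the chemokine gene Cxcl9 and by Socs1, both at -0.55. On the deposited scale, differences of Mx1 size were therefore found among type I leaning genes that had more fragments. In the log2 ratio of fragments, which holds no pseudocount, Mx1 stood higher, at 2.28 (interval 1.34 to 3.35). The ratio was 1.81 for Ifit3, 1.83 for Rsad2 and 1.69 for Ifit1, with intervals that overlapped that of Mx1.

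**Figure D5:**
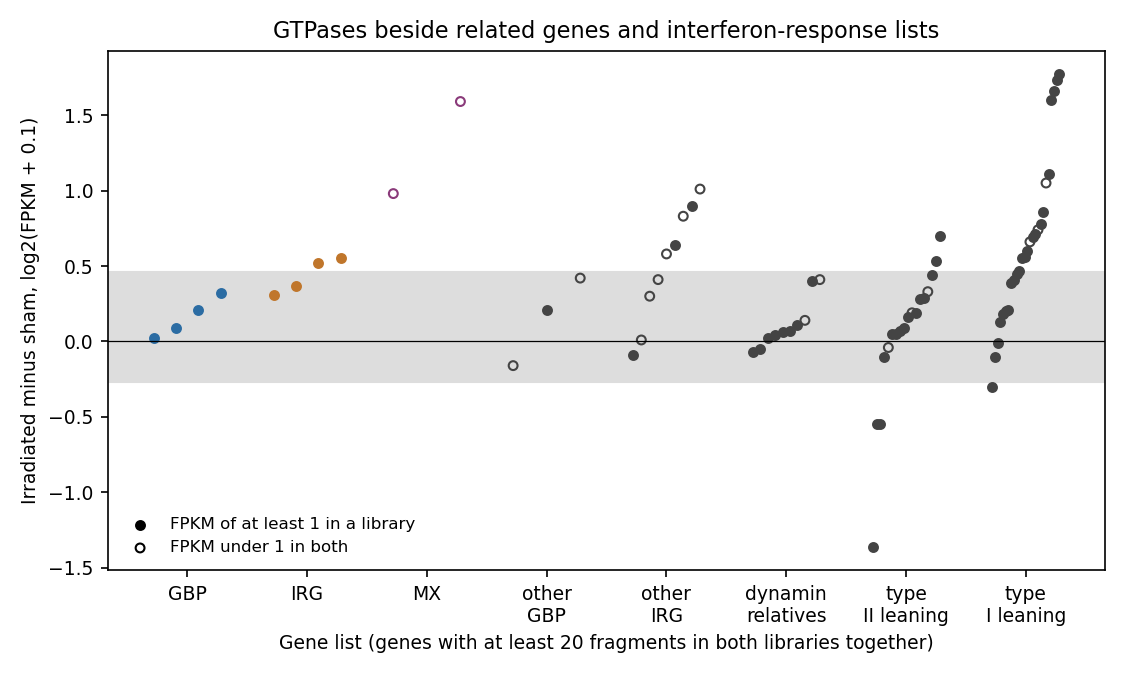
Difference of log2(FPKM + 0.1), irradiated minus sham, for each gene with at least 20 fragments in both libraries together in the 3 member families, the other GBPs and IRGs, the dynamin relatives, and the type II leaning and type I leaning lists, with open points for genes under FPKM 1 in both libraries, a line at 0 and the 5th to 95th percentile of all kept genes in grey. The type I leaning genes reach 1.77, the type II leaning genes run from -1.36 to 0.70 among those kept, and the kept dynamin relatives from -0.07 to 0.40.

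The genes that work beside these GTPases at vacuoles and inflammasomes had small differences. Of 16 such genes, 14 were kept, 10 of them with a counting interval above 0 (23.8% of all kept genes) and 0 below, none reached 0.5, and the median difference was 0.13. The largest were Aim2, a DNA sensor (0.40), Atg7, of the autophagy machinery (0.34), and Casp1, the inflammatory caspase (0.34). Casp4, which senses lipopolysaccharide, was at -0.02, and Atg5 and Map1lc3b were at 0.00. The prenyl transferase genes, whose products attach lipid anchors to GTPases such as Gbp2 and Gbp5, were at 0.02 (Fnta), -0.06 (Pggt1b) and -0.11 (Fntb).

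Markers of mature adipocytes and of other cell types were checked beside the GTPases. The label names primary adipocytes, yet Adipoq measured 0.133 and 0.232 FPKM, Plin1 0.254 and 0.478 FPKM and Cidec 0.230 and 0.234 FPKM in the sham and irradiated libraries, whereas Cd36 measured 117.7 and 160.8 FPKM. The summed level of 10 adipocyte markers was 288.5 and 331.3 FPKM. Cd36, Fabp4 (96.9 and 96.9 FPKM) and Lpl (68.0 and 66.6 FPKM) made up most of both sums, so the sums say little about the other markers. Fibroblast and progenitor markers summed to 4269 and 3367 FPKM over 7 genes, most of it from collagen genes. Of the 7, 3 were higher and 4 lower (53.5% of all kept genes were higher). Col1a1 measured 1937 and 1428 FPKM and Pdgfra 95.6 and 73.9 FPKM, whereas Dcn measured 548.6 and 552.5 FPKM. Fewer cells of a type and less RNA per cell cannot be told apart in such libraries.

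Macrophages express many interferon-induced GTPases, and their 12 markers summed to 616.8 FPKM in the sham library and 657.7 FPKM in the irradiated library. Of the 11 kept, 9 were higher (53.5% of all kept genes) and 2 lower, 8 counting intervals lay above 0 (23.8% of all kept genes) and 1 below, and the median was 0.38. Of the same 11, 4 were higher by at least 0.5 (4.31% of all kept genes) and 0 lower by as much. Cd68 measured 59.2 and 96.9 FPKM, Csf1r 10.6 and 13.8 FPKM, and Adgre1 15.7 and 15.5 FPKM. Lyz2, at 442.5 and 410.0 FPKM, made up most of both sums, so the sums say little about the other markers. T and NK cell markers, whose cells are known sources of interferon-γ, summed to 3.58 and 2.47 FPKM over 11 genes. Of these, 3 were higher and 8 lower in the irradiated library (53.5% of all kept genes were higher). Only Cd3g was kept, with 35 and 22 fragments and a difference of -0.77. Over the 11 genes, 2 counting intervals lay below 0 and 0 above. The defining T and NK cell markers were near the detection limit, with Cd3e at 18 and 13 fragments, Klrb1c at 5 and 7, and Ncr1 at 2 and 1. B cell markers summed to 0.956 and 0.323 FPKM over 3 genes, all 3 of them lower and 0 of them kept.

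Endothelial markers summed to 49.8 and 55.2 FPKM, with 8 of 9 higher (53.5% of all kept genes) and a median difference of 0.20. Mesothelial markers summed to 34.0 and 48.1 FPKM, with 6 of 7 higher (53.5% of all kept genes). All 6 were higher by at least 0.5 (4.31% of all kept genes), and the median difference was 1.35 (order-statistic interval -0.13 to 2.18). Msln measured 0.520 and 2.71 FPKM, whereas Wt1, the highest of these markers and the only lower one, measured 20.4 and 18.7 FPKM. None of the defining markers of these cell types was at 0 in both libraries. The part that any of these cell types has in the differences of the GTPases was not tested.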

How the data were processed

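The authors deposited 1 table of log2(FPKM + 0.1) for 24091 genes, with 2 decimals and gene coordinates and lengths, made from polyA RNA and a stranded library preparation. The submitters' processing notes name the genome build mm10. The aligner, counting tool and annotation were not given in the sources used here.

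FPKM was recovered as 2 raised to the deposited value, minus 0.1. The total of each library was the value for which fragments on low genes came out whole, within 0.12 of a fragment. This held for 3600 of 3601 genes with at most 20 fragments in the sham library and for 3608 of 3608 in the irradiated library. At high levels the rounding makes the fragment numbers approximate. The recovery and the intervals were tested on simulated data.

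The conditions were taken from the labels, 1 library each, so no test between them was made. Genes reaching FPKM 1 in either library were kept, and a difference of at least 0.5 was counted. Exact Clopper-Pearson and Poisson intervals were computed with SciPy 1.17.1 in Python 3.11.15. The alternatives were another pseudocount, filter, threshold, centring and scaling, removal of the gene-length trend, and a wider interval. Family sums without single genes and the background of genes with 50 to 150 fragments were chosen after seeing the data.

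The members, the gene lists and the tests were chosen with earlier results of these data known. The text names all 10 GTPases, every kept gene among the other GBPs, other IRGs and receptors, ligand genes with a fragment, the 3 largest and 2 smallest differences of each further list, and from each cell type its highest gene or its first markers. Ifng, Ifnlr1, Tgtp1, Tgtp2, Gm43802, Dnm3, Irf1, Fabp4 and Lpl were named outside this rule, after their values were seen. Promoter sequences and gene types came from RefSeq (GRCm38.p6) and exons from GENCODE M21, both on the same assembly as mm10. Of the 10 members, 10 share a start or end with RefSeq and 9 with GENCODE, within 5 bases. Promoters of Mx1, Mx2 and Iigp1 were not used here.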

Additional observations from a re-analysis of the deposited data

How the results depend on the processing

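No paired analysis was possible because the design holds 1 library per condition. No library could be left out either. The number of kept GTPases higher by at least 0.5, which was 2, became 1 with a pseudocount of 1, 1 with the gene-length trend removed, 1 with a minimum FPKM of 5, 4 with no filter (Mx1 and Mx2 added) and 0 with a threshold of 1. The share of kept genes past the same size, 4.31%, became 2.34% with the pseudocount of 1, 2.47% with the minimum of 5 and 0.791% with the threshold of 1. With the pseudocount of 1, Mx1 went from 1.59 to 0.46 and Mx2 from 0.98 to 0.41, because such a pseudocount exceeds their levels. No result changed direction under any alternative that was run. The median or mean of the kept GTPases stayed between 0.20 and 0.35, that of the type I leaning list between 0.43 and 0.64, and that of the type II leaning list between 0.02 and 0.23. All kept genes had a median of 0.02, so centring lowered each difference by that amount and brought Gbp2 to 0.00. Depth limits Mx1 and Mx2 most, with 11 and 27 fragments in the sham library.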

Other observations

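Genes outside the lists that share the ISRE letters were described in the same way, without a test. Of the kept genes with a RefSeq promoter window, 328 held an ISRE match, with a median difference of 0.04, and 26 of them (7.93%) were higher and 6 (1.83%) lower by at least 0.5. Without the genes of the lists above, 308 remained, with a median of 0.035 and 18 (5.84%) higher by at least 0.5. The 666 genes with a GAS match and no ISRE match had a median of 0.01, with 20 (3.00%) higher by at least 0.5. The 7752 genes with neither match had a median of 0.02, with 284 (3.66%) higher by at least 0.5. Among the lists, an ISRE match was present in the windows of 11 of 19 type I leaning genes (57.9%) and of 1 of 13 type II leaning genes (7.69%), and a GAS match in 4 of 19 (21.1%) and 4 of 13 (30.8%).

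Gvin1, a very large interferon-inducible GTPase, stayed under FPKM 1, at 0.298 FPKM from 165 fragments in the sham library and 0.578 FPKM from 366 fragments in the irradiated library, a difference of 0.77. It was named after its value was seen, and 99.2% of its 50-base windows were identical to other genes, most of them to Gm4070, which was not analysed here.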
